A study of Mus musculus with 8 samples.

Results

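G protein gamma and beta subunits were examined at the level of their transcripts in a mouse leukaemia cell line grown in 2 media, with Gng4 as the leading gene. The set holds 9 of the 21859 genes in the count table, found by Ensembl identifier: 6 gamma subunits (Gng4, Gng2, Gng5, Gng7, Gng10 and Gng12) and 3 beta subunits (Gnb1, Gnb2 and Gnb4). The set was chosen by the difference in counts between the media, led by Gng4, within the gamma and beta subunit families, so its values in that comparison are given as a description without a test. RNA was sequenced from 8 cultures of PER-M60 cells, 4 kept in control media and 4 in osteoclast-conditioned media, that is, media taken from osteoclasts, the cells that resorb bone. No agent other than the medium is named for either group, and every culture is of the same line, so the values describe 1 line. Whether the 4 cultures of a medium were started separately is not given in the sources used here, so the spread between them may be in part technical.

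A heterotrimeric G protein joins a receptor on the cell surface to enzymes inside the cell. Its alpha subunit binds guanine nucleotide, while a beta subunit, folded as a propeller, holds a small gamma subunit for life, and a lipid on the end of the gamma subunit anchors the pair to the membrane. When a receptor such as a chemokine receptor is activated, alpha and beta-gamma part, and the free beta-gamma pair can act on phospholipase C beta, phosphoinositide 3-kinase gamma, adenylyl cyclases and receptor kinases. Leukocytes use this route in directed migration, and gamma subunits differ in sequence, lipid and tissue range. Gng4 is best known from the nervous system.

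Because Gng4 had the widest difference among the 6 subunit genes that could be fitted, the sequence just upstream of its first annotated start site is shown first. It covers 250 bases on the plus strand, chr13:13783809-13784058 in build GRCm38.p6 from RefSeq, and 56.4% of its bases are G or C, against a median of 52.4% over 32851 such windows. It is written 5′ to 3′ and ends on the base before the start.

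Gng4: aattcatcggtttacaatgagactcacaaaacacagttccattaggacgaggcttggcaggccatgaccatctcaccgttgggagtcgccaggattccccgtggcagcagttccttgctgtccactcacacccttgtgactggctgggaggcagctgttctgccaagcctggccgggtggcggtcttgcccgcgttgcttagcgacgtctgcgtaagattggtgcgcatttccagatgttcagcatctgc

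Capitals would mark a match, on either strand, to one of 4 letter strings searched: TGATGNAA, the core of the C/EBP-ATF response element, TGACGTCA, the cyclic AMP response element, CACGTG, an E-box, and TGACG, one side of the cyclic AMP response element, which also lies within the full element. None of the 4 occurred in this window, and none occurred in the window of Gng2. Over all 32851 windows of the same length, 3.45% held TGATGNAA, 1.55% held TGACGTCA, 6.02% held CACGTG and 17.8% held TGACG. A window was listed for 8 of the 9 subunit genes, 11 windows in all, and matches were found in those of Gnb1, Gng7 and Gng4. The Gnb1 window held CGTCA 225 bases and TGACG 31 bases before the start. One Gng7 window held CGTCA 109 bases before the start. A further Gng4 window, upstream of an alternative start, held TGACG 51 and 40 bases before that start. That window, chr13:13784057-13784306, lies almost wholly inside the annotated gene, which starts at 13784059. The bases just after the alternative start were found in no GENCODE transcript of Gng4, so this start is less certain. All matches named here are of letters only.

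Each culture gave between 15391754 and 21637966 counts, so that 3 counts, taken as the floor of detection, corresponded to between 0.138 and 0.194 normalised CPM. This unit gives counts relative to a library size scaled by the trimmed mean of M values (TMM). Such floors cover counting error only. Of 10729 genes with enough counts to test, 3273 (30.5%) passed an adjusted p under 0.05 between the media by edgeR's quasi-likelihood test, 1689 (15.7%) higher and 1584 (14.8%) lower in osteoclast-conditioned media. The higher share of the calls was 51.6%, and 40.7% with total counts as the only scaling. The median log2 fold change over all genes tested was -0.01, and the median size was 0.09 on the log2 scale. The labelled cell type was checked against markers: all 12 B-lineage genes listed passed the filter, with a summed level of 5304 to 5381 CPM in control cultures and 5593 to 5656 CPM in osteoclast-conditioned cultures. Of 13 osteoclast markers 4 passed the filter, with sums over all 13 of 347 to 360 CPM in control and 337 to 350 CPM in osteoclast-conditioned cultures. Among those 4, Nfatc1 was called higher, at 95.6 CPM in control and 106 CPM in osteoclast-conditioned media, Car2 was called lower at 223 and 203 CPM, Itgb3 was called lower at 12.9 and 10.7 CPM, and Acp5 was not called at 22.9 and 24.4 CPM. The defining fusion genes Dcstamp and Ocstamp were at 0 in every culture, Ctsk had 0 to 5 counts and Calcr 0 to 1. Of 8 macrophage markers 3 passed, with sums of 20.8 to 22.2 CPM in control and 21.5 to 25.2 CPM in osteoclast-conditioned cultures. Those 3 were Mrc1 at 14.3 CPM in control and 14.7 CPM in osteoclast-conditioned media, Lyz2 at 4.46 and 5.91 CPM, and Cd68 at 2.11 and 2.13 CPM. Of the rest, Adgre1 had 0 to 2 counts, Csf1r 0 to 6 and Fcgr1 0 to 5. Cd14 and Itgam were at 0, Itgam lying inside another listed gene. Lyz2 was the 1 macrophage marker called, higher by 0.40 on the log2 scale (edgeR, adjusted p = 0.0119), and the part of such cells in the results below was not tested. In bulk samples, fewer cells that carry a transcript and less of it per cell cannot be told apart.

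Gng4 was about 3 times as abundant in osteoclast-conditioned media as in control media, while Gng2, Gnb1 and Gnb4 were higher by small fractions, and Gng5 and Gng12 lay close together in both media. Gng7 sat near the floor, and Gng10 and Gnb2 lie inside other genes and gave next to no counts. Thus 6 of the 9 subunit genes passed the filter on low counts. Of those, 4 were past the threshold, all higher, beside 30.5% of all genes tested in either direction and 15.7% in the higher direction. The same 4 had no overlap between the media, beside 28.2% of all genes in either direction and 15.2% in the higher direction. These shares follow from the choice of the genes and nothing is read from them. The median log2 fold change of the 6 was 0.18.

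**Figure D1:**
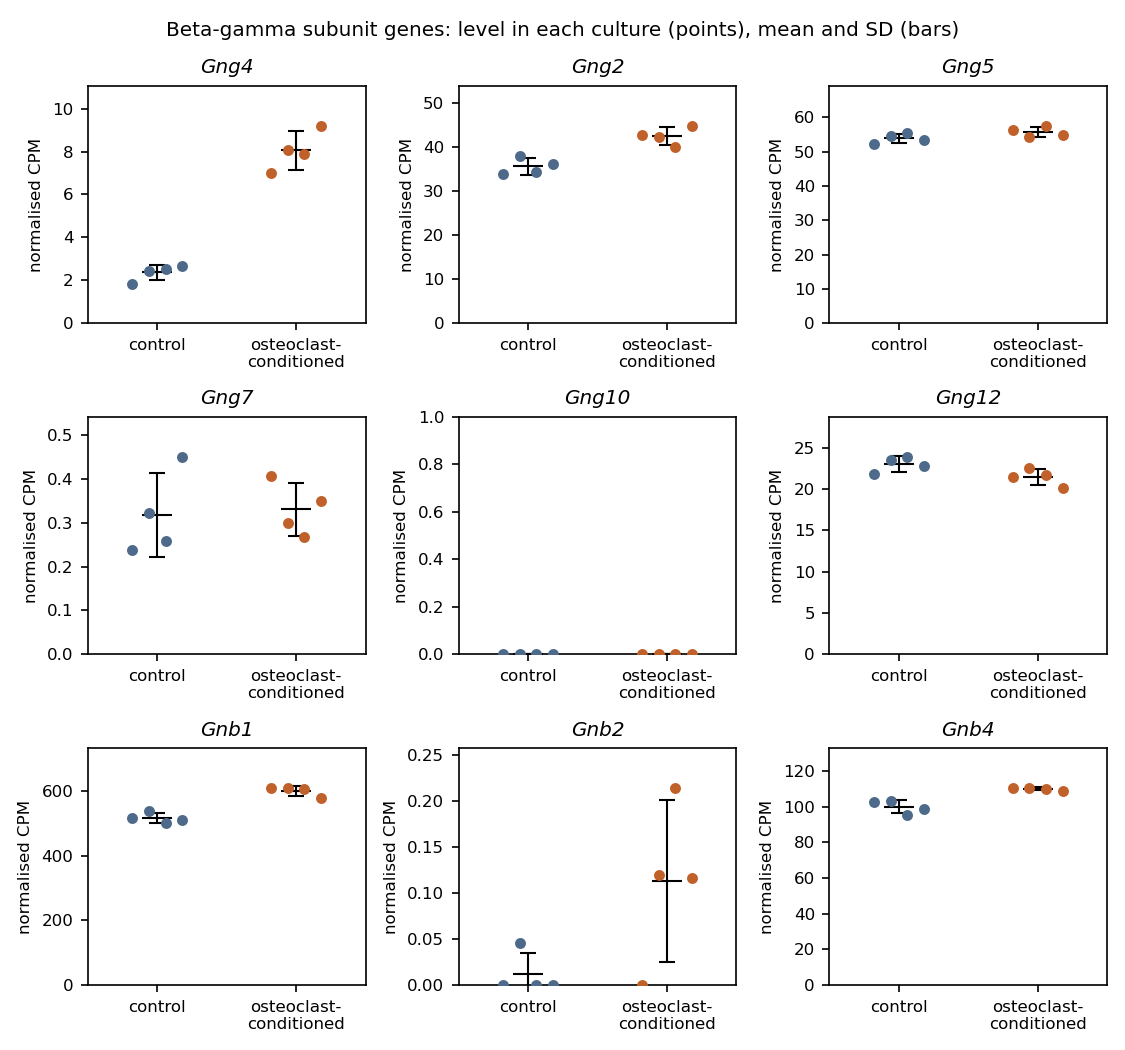
Normalised CPM (y axis, linear, starting at 0, each panel with its own scale) of the 9 subunit genes in each of 8 cultures, by medium (x axis). Points are cultures, the bars their mean and SD with n = 4; the Gng4 cultures lie between 1.84 and 2.65 CPM in control media and between 7.02 and 9.22 CPM in osteoclast-conditioned media, and Gng10 is at 0 throughout.

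Gng4 (ENSMUSG00000021303, chr13:13784059-13827896, plus strand, GRCm38) encodes a small gamma subunit that is geranylgeranylated at its end. It had 31, 53, 39 and 47 counts in control replicates 1 to 4 and 138, 135, 147 and 158 counts in osteoclast-conditioned replicates 1 to 4. The corresponding levels were 1.84, 2.44, 2.52 and 2.65 CPM in control media, and 7.02, 8.08, 7.89 and 9.22 CPM in osteoclast-conditioned media. All 4 osteoclast-conditioned cultures lay far above all 4 control cultures, and control replicate 1 was the lowest of its group. The mean was 2.36 ± 0.363 CPM in control and 8.05 ± 0.904 CPM in osteoclast-conditioned media (SD, n = 4 each). The fold fitted by edgeR, as for all subunits here, was 3.38, a log2 difference of 1.76 (SE 0.13), the 8th from the highest among the 10729 genes tested. Leaving out each culture in turn moved it between 1.66 and 1.82.

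Gng2 (ENSMUSG00000043004, chr14:19872559-19977627, minus strand) is a widely used gamma subunit of leukocytes. Its levels were 33.9, 38.0, 34.2 and 36.2 CPM in control media and 42.7, 42.1, 40.0 and 44.8 CPM in osteoclast-conditioned media. The groups did not overlap, with control replicate 2 nearest to the other medium. The mean went from 35.6 ± 1.89 to 42.4 ± 1.98 CPM (SD, n = 4 each), a log2 difference of 0.25 (SE 0.05). At 1.19-fold this is far narrower than the Gng4 difference.

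Gng5 (ENSMUSG00000068523, chr3:146499807-146505572, plus strand), a gamma subunit found in most tissues, had 52.3, 54.5, 55.5 and 53.3 CPM in control media and 56.4, 54.2, 57.7 and 54.8 CPM in osteoclast-conditioned media. The groups overlapped. The means of 53.9 ± 1.41 and 55.8 ± 1.55 CPM (SD, n = 4 each) gave a log2 difference of 0.05 (SE 0.04). Gng12 (ENSMUSG00000036402, chr6:66896397-67021350, plus strand), another broadly expressed gamma subunit, had 21.8, 23.5, 24.0 and 22.9 CPM in control media and 21.4, 22.6, 21.7 and 20.2 CPM in osteoclast-conditioned media. Here too the groups overlapped, with the lowest culture in osteoclast-conditioned media. Its means were 23.0 ± 0.933 and 21.5 ± 0.990 CPM (SD, n = 4 each), a log2 difference of -0.10 (SE 0.06), the only negative one among the 6.

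Gng7 (ENSMUSG00000048240, chr10:80948624-81014945, minus strand), known as the partner of the olfactory alpha subunit in the striatum, had 4 to 8 counts in control cultures and 5 to 8 in osteoclast-conditioned cultures. It was detected above the floor in every culture but was too low for a difference between the media to be measured at this depth. Gng10 (ENSMUSG00000038607, chr4:59035088-59041903, plus strand) had 0 counts in all 8 cultures. Of its span, 99.8% lies inside Gm20503, a gene model on the same strand that had 7 to 19 counts. Exons of Gm20503 cover 72.0% of the exon bases of Gng10. Among 253 genes with over 95% but not all of their span inside other listed genes, 14.6% passed the filter and 53.8% were at 0 throughout. Of 923 genes with their whole span inside others, 0 passed and 98.9% were at 0 throughout. By comparison, of 17163 genes with no overlap 47.7% passed and 31.1% were at 0 throughout. How reads shared with Gm20503 were counted is not given in the sources used here, so the 0 counts of Gng10 are not read as a level of expression.

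Among the beta subunits, Gnb1 (ENSMUSG00000029064, chr4:155491361-155559269, plus strand) encodes the common partner of most gamma subunits. Its levels were 516, 537, 503 and 509.7 CPM in control media and 609, 611, 606 and 578 CPM in osteoclast-conditioned media. No control culture reached the lowest osteoclast-conditioned one, replicate 4. The mean went from 516 ± 14.8 to 601 ± 15.7 CPM (SD, n = 4 each), 1.16-fold, a log2 difference of 0.22 (SE 0.03).

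Gnb4 (ENSMUSG00000027669, chr3:32580332-32616585, minus strand), a beta subunit close to Gnb1 in sequence, had 103, 103, 95.3 and 98.6 CPM in control media and 111, 111, 110.0 and 109 CPM in osteoclast-conditioned media. The osteoclast-conditioned cultures were tightly grouped and all lay above the control cultures. The means of 99.97 ± 3.73 and 110.1 ± 0.850 CPM (SD, n = 4 each) gave a log2 difference of 0.14 (SE 0.03), or 1.10-fold. Gnb2 (ENSMUSG00000029713, chr5:137528127-137533510, minus strand), otherwise a widely expressed beta subunit, had 0 to 1 counts in control and 0 to 4 in osteoclast-conditioned cultures. Its span lies to 95.02% inside the annotated span of Epo, on the same strand, although only 3.06% of its exon bases coincide with exons of Epo. Epo, the erythropoietin gene, had 104 to 153 counts, and its log2 difference was -0.15 (edgeR, adjusted p = 0.566). The counts of Gnb2 give no measure of a difference, and how reads in overlapping genes were counted is not given in the sources used here.

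The spread within a medium played no part in choosing the genes. For Gng4 the coefficient of variation between cultures of 1 medium was 13.4%, beside 12.3% from counting alone. Gng5 (2.699% beside 3.18%) and Gng12 (4.34% beside 5.00%) varied no more than their counts allow. Gng2 varied by 5.00% beside 3.79%, and Gnb4 by 2.69% beside 2.30%. For Gnb1 the spread of 2.74% was 2.74 times the counting error of 1.00%. RefSeq lists 4 pseudogenes named after these subunits, for Gng2, for Gng5 and a pair for Gnb1. Reads shared with such copies could make those counts uncertain, which was not tested.

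Levels of different subunits were compared per kilobase of exon, over 12 gamma genes and 5 beta genes. Whether the counts include reads in introns was not tested. If they do, levels per kilobase of exon, and the orders and shares below, are not comparable between genes of unlike span. Gng10, Gng3 and Gnb2 enter the sums below as counted, at or near 0. All 3 lie inside other genes, and whether this lowered their counts was not tested. Every sum and share may therefore leave out what those 3 subunits contribute. Among the gamma genes measured, the order was Gng5, Gngt2, Gng2, Gng12 and Gng4 in both media. In control media Gng5 reached 19.5 ± 0.509 and Gngt2, the gamma subunit of cone transducin that also occurs in blood cells, 17.0 ± 1.44 CPM per kb. Their ranges of 18.9 to 20.1 and 15.8 to 19.1 overlapped between cultures, but within each of the 4 control cultures Gng5 was the higher, nearest to Gngt2 in control replicate 3 at 20.1 beside 19.1. In osteoclast-conditioned media, at 20.2 ± 0.561 and 17.5 ± 0.611 CPM per kb, the ranges did not overlap. However, 61.8% of the span and 12.5% of the exon bases of Gngt2 overlap Abi3, on the opposite strand. How such reads were counted is not given in the sources used here. The level of Gngt2, its place beside Gng5 and the sums that hold it are therefore uncertain. Gng2 followed with 8.10 ± 0.431 CPM per kb in control and 9.66 ± 0.451 in osteoclast-conditioned media. Gng12 came next with 4.87 ± 0.197 and 4.54 ± 0.209, and these neighbours were apart in every culture. Gng4 moved from 0.708 ± 0.109 to 2.41 ± 0.271 CPM per kb (SD, n = 4 for each of these levels), still below Gng12.

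As a share of the summed gamma level as counted, in effect without Gng10 and Gng3, Gng4 made up 1.15%, 1.44%, 1.42% and 1.58% in control replicates 1 to 4 and 3.86%, 4.41%, 4.38% and 5.00% in osteoclast-conditioned replicates 1 to 4. Its mean share was thus 1.40% ± 0.179 in control and 4.41% ± 0.465 in osteoclast-conditioned media (SD, n = 4 each). The summed gamma level was 50.5 ± 2.21 CPM per kb in control and 54.6 ± 0.578 in osteoclast-conditioned media. Of the difference of 4.12 CPM per kb in this sum, Gng4 accounted for 1.70 (41.4%) and Gng2 for 1.56 (37.8%), even though Gng4 was the lowest of the 5 main gamma genes. Gng5 accounted for 16.3% and Gngt2 for 12.6% of it, and Gng12 for -0.326 CPM per kb. Leaving out each culture in turn gave 34.5% to 51.6% for Gng4 and 29.2% to 44.7% for Gng2. The share of Gngt2 was less steady, at 24.4% without control replicate 3 and 4.07% without control replicate 1, and that of Gng5 was 10.1% without osteoclast-conditioned replicate 3.

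**Figure D2:**
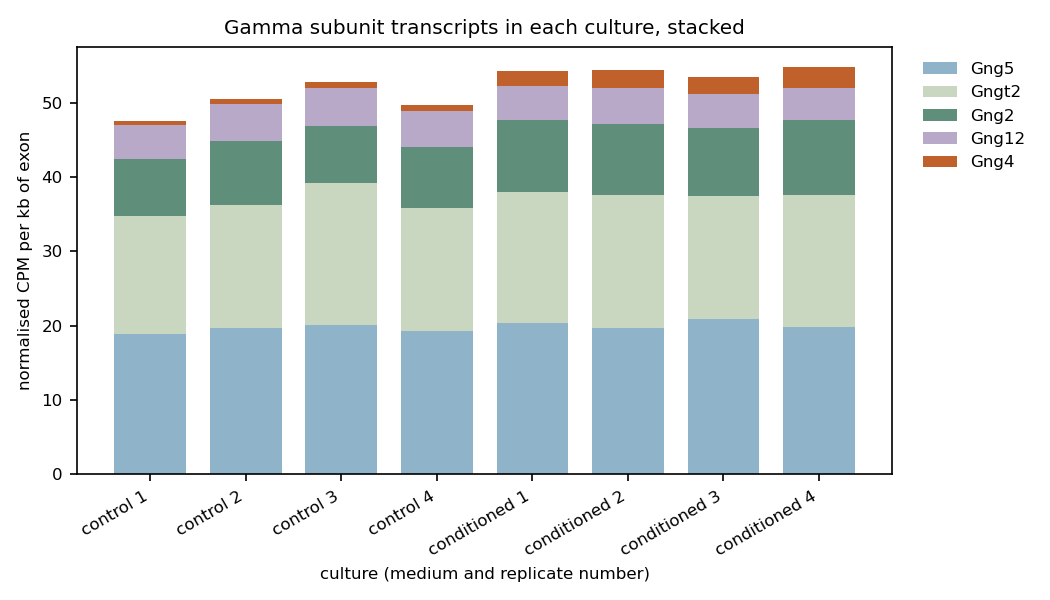
Normalised CPM per kb of exon (y axis, linear from 0) of the 5 most abundant gamma subunit genes, stacked for each of 8 cultures (x axis). The Gng4 segment at the top makes up 1.15% to 1.58% of the summed gamma level in control cultures and 3.86% to 5.00% in osteoclast-conditioned cultures, while Gng5 and Gngt2 fill most of every bar.

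Gnb1 took 92.0% of the summed beta level as counted, in effect without Gnb2, in control and 92.5% in osteoclast-conditioned media. Gnb1 stood at 121 ± 3.48 CPM per kb in control and 141 ± 3.67 in osteoclast-conditioned media, Gnb4 at 7.88 ± 0.294 and 8.68 ± 0.0670, and the more distant Gnb5 at 2.58 and 2.65. Of the 20.7 CPM per kb by which this sum differed, Gnb1 accounted for 19.8 (95.5%). Measured over the longest transcript in place of all exons, Gnb4 stood at 16.7 CPM per kb in control and 18.4 in osteoclast-conditioned media, with Gnb1, Gnb4 and Gnb5 in the same order.

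The genes whose profile over the 8 cultures was most like that of Gng4 were Fam129a, Trib3, Aldh1l2, Tph1 and Bcar3. Likeness was the root mean square difference in log2 CPM, each gene centred on its own control mean, over 9031 tested genes of at least 5 CPM on average. It is set mainly by the difference between the media, so these genes are described without a test. The difference from Gng4 was 0.168 for Fam129a (also called Niban), 0.211 for Trib3, a pseudokinase, 0.307 for Aldh1l2, a mitochondrial folate enzyme, 0.358 for Tph1, which hydroxylates tryptophan, and 0.364 for Bcar3, an adaptor protein. The median over all candidates was 1.24. Fam129a went from 19.98 ± 1.51 to 64.9 ± 2.13 CPM (SD, n = 4 each), a log2 difference of 1.70, and Tph1 from 9.85 ± 0.774 to 24.8 ± 4.45 CPM, a log2 difference of 1.33. The other subunits were much less like Gng4: Gng2 ranked 396, Gnb1 624, Gnb4 1299, Gng5 2951 and Gng12 6941 of the 9031. Among the 5 genes, Trib3 and Tph1 held TGACG in their upstream windows and Bcar3 held CACGTG once, while Fam129a and Aldh1l2 had no listed window.

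**Figure D3:**
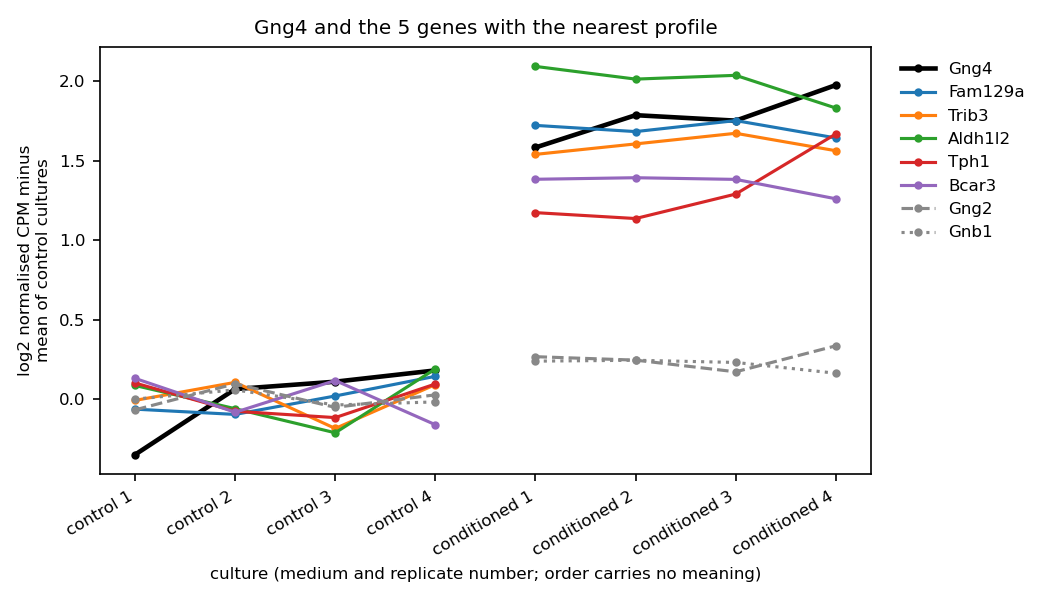
Log2 normalised CPM minus the mean of the control cultures (y axis) for Gng4, its 5 nearest genes, Gng2 and Gnb1 in each of 8 cultures (x axis). Lines only join the points of a gene, since cultures have no order; in osteoclast-conditioned cultures Gng4 and its 5 nearest genes lie above 1 and Gng2 and Gnb1 below 0.5.

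On chromosome 13 the nearest listed gene before Gng4 is Lyst, a regulator of lysosomal traffic, which ends 5256 bases before it on the same strand. Lyst rose from 16.7 ± 1.98 to 22.9 ± 1.23 CPM (SD, n = 4 each), which is 0.45 on the log2 scale (SE 0.07; edgeR, adjusted p = 1.35e-05). The nearest gene after it, B3galnt2, starts 126573 bases away and differed by -0.11 on the log2 scale (SE 0.05; edgeR, adjusted p = 0.107). Next on that side, Tbce was not called either, at -0.18 (SE 0.08; edgeR, adjusted p = 0.0874). Nid1, the next gene before Lyst, had 0 to 1 counts. These neighbours were chosen after their values were seen.

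The partners of beta-gamma were then read by role, over 126 genes in 7 lists that hold none of the 9 subunits. Of these, 77 passed the filter and 19 (24.7%) passed the edgeR threshold, beside 30.5% of all genes tested. Of the 77, 12 (15.6%) rose, beside 15.7% of all genes, and 7 (9.09%) fell, beside 14.8%. With total counts only, 11 rose and 12 fell. The median log2 fold change of the 77 was 0.02. Among the 57 of them that overlap no other listed gene, 13 (22.8%) passed, 8 higher and 5 lower, beside 31.9% of all 8191 tested genes without overlap. Altogether 9 of the 126 lie to at least 95% inside another gene, and all 9 were at 0 counts.

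**Figure D4:**
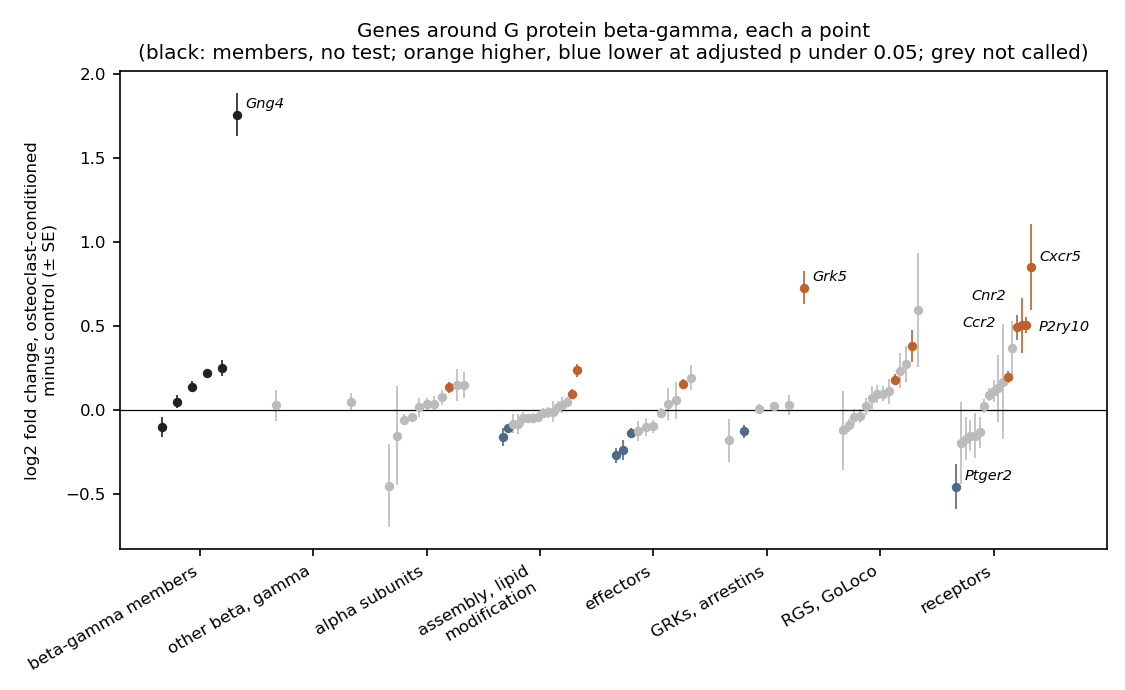
Log2 fold change between the media (y axis, osteoclast-conditioned minus control, bars ± SE) for each gene past the filter, by role (x axis); black points are the subunits described without a test, and colour marks genes past an edgeR adjusted p of 0.05. Gng4 stands at 1.76, and the called genes of the other roles reach from -0.46 for Ptger2 to 0.85 for Cxcr5.

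Of the 8 other beta and gamma subunits, 2 passed the filter, and neither was called. Gngt2 was at 31.9 ± 2.698 CPM in control and 32.8 ± 1.15 CPM in osteoclast-conditioned media (SD, n = 4 each), which is 0.05 on the log2 scale (SE 0.05; edgeR, adjusted p = 0.551). Without 1 culture it ranged from 0.02 to 0.10, and 61.8% of its span overlaps Abi3 on the opposite strand. Gnb5, the beta subunit that pairs with RGS proteins, was at 0.03 on the log2 scale (SE 0.09; edgeR, adjusted p = 0.847). Gng3, Gng11 and Gngt1 had 0 counts, Gng8 0 to 1, Gng13 0 to 7 and Gnb3 0 to 5. Gng3 lies wholly inside other listed genes.

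Alpha subunits are the other side of the heterotrimer. Of 16 listed, 11 passed the filter and 1 (9.09%) was called, beside 30.5% of all genes tested, and the median log2 fold change of the 11 was 0.03. Gna13 rose from 185 ± 5.68 to 203 ± 7.62 CPM (SD, n = 4 each), which is 0.13 on the log2 scale (SE 0.03; edgeR, adjusted p = 0.00123). Gnai2, the main inhibitory alpha subunit of leukocytes, was at 430 ± 8.65 CPM in control and 418 ± 6.27 CPM in osteoclast-conditioned media (log2 fold change -0.04, SE 0.03; edgeR, adjusted p = 0.237). Likewise uncalled were Gnai3 at 0.03, which was 0.02 to 0.07 without 1 culture, and the stimulatory Gnas at -0.06, and, of the class coupled to phospholipase C, Gnaq at 0.04, Gna11 at 0.02 and Gna15 at 0.07, all as log2 fold changes. Gna12, the relative of Gna13, and Gnat2 were each at 0.15 and not called, Gnal was at -0.15, and Gnat3 was at -0.45 with an SE of 0.25. With total counts as the only scaling, Gnai2 passed the threshold at -0.06. Gna12 passed it without control replicate 2, at 0.23, and with no filter on low counts, at 0.15, and Gnas passed it without control replicate 2, at -0.08.

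Genes for folding, assembly and lipid modification of the subunits were 16, all past the filter, and 2 rose, 2 fell and 12 were not called (median log2 fold change -0.03), which is 25.0% called beside 30.5% of all genes tested. Ric8a, a chaperone and exchange factor of alpha subunits, rose from 61.3 ± 3.46 to 72.3 ± 2.04 CPM (SD, n = 4 each), which is 0.24 on the log2 scale (SE 0.04; edgeR, adjusted p = 3.68e-05). It shares 11.4% of its exon bases with genes on the opposite strand, Bet1l and Sirt3, and since the use of strand is not given in the sources used here, such reads cannot be told apart. Pdcl, which with the CCT chaperonin folds beta subunits, fell by 0.16 on the log2 scale (SE 0.06; edgeR, adjusted p = 0.0275). The chaperonin subunits Cct8 and Cct4 went opposite ways, at -0.11 (SE 0.03; edgeR, adjusted p = 0.00149) and 0.10 (SE 0.03; edgeR, adjusted p = 0.0232). The call of Pdcl was lost with DESeq2 and without control replicate 3, where the value was -0.096, or without osteoclast-conditioned replicate 2 or 3. The call of Cct4 was lost with total counts only and without control replicate 1 or 4 or osteoclast-conditioned replicate 2 or 3.

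Among 23 beta-gamma effectors, 11 passed the filter, of which 1 rose, 3 fell and 7 were not called (median log2 fold change -0.10). The share called was 36.4%, beside 30.5% of all genes tested. Pik3cg, the catalytic subunit of phosphoinositide 3-kinase gamma, rose from 232 ± 6.53 to 258 ± 6.52 CPM (SD, n = 4 each), which is 0.16 on the log2 scale (SE 0.03; edgeR, adjusted p = 8.91e-05). Its regulatory subunit Pik3r5, through which beta-gamma acts on it, fell from 21.8 ± 0.727 to 18.5 ± 1.11 CPM, which is -0.24 on the log2 scale (SE 0.06; edgeR, adjusted p = 0.00307). Plcb3, a phospholipase C beta, fell from 48.5 ± 1.32 to 40.2 ± 2.46 CPM, which is -0.27 on the log2 scale (SE 0.05; edgeR, adjusted p = 3.61e-05). Prex1, a Rac exchange factor, fell by 0.14 on the log2 scale (SE 0.03; edgeR, adjusted p = 0.000933). The 4 potassium channel genes listed, Kcnj3, Kcnj5, Kcnj6 and Kcnj9, did not pass the filter.

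Of 9 receptor kinases, arrestins and phosducin, 6 passed the filter, of which 1 rose, 1 fell and 4 were not called, a called share of 33.3% beside 30.5% of all genes tested. Grk5, a kinase that phosphorylates activated receptors, rose from 5.19 ± 0.280 to 8.60 ± 0.642 CPM (SD, n = 4 each). This change of 0.73 on the log2 scale (SE 0.10; edgeR, adjusted p = 9.18e-07) held the same call without any 1 culture, between 0.68 and 0.76. Grk2, the kinase recruited by beta-gamma itself, was not called (log2 fold change 0.02, SE 0.02; edgeR, adjusted p = 0.508). Arrb2, a beta-arrestin, fell by 0.13 on the log2 scale (SE 0.04; edgeR, adjusted p = 0.0126), a call lost without control replicate 1.

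RGS proteins speed the turning off of alpha subunits. Of 22 RGS and GoLoco genes 14 passed the filter, and 2 rose, 0 fell and 12 were not called (median log2 fold change 0.10). That is 14.3% called, beside 30.5% of all genes tested. Rgs9 rose from 5.72 ± 0.305 to 7.48 ± 0.417 CPM (SD, n = 4 each), which is 0.38 on the log2 scale (SE 0.10; edgeR, adjusted p = 0.00306). Rgs8 rose from 101 ± 2.92 to 114 ± 1.24 CPM, which is 0.18 on the log2 scale (SE 0.03; edgeR, adjusted p = 5.74e-05).

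Receptors that signal through G proteins in leukocytes numbered 32, of which 17 passed the filter. Of those, 5 rose, 1 fell and 11 were not called (median log2 fold change 0.11), so that 35.3% were called, beside 30.5% of all genes tested. P2ry10, a receptor for lysophospholipids, rose from 26.7 ± 0.598 to 37.9 ± 1.34 CPM (SD, n = 4 each), which is 0.51 on the log2 scale (SE 0.05; edgeR, adjusted p = 2.14e-09). The chemokine receptor Ccr2 rose from 12.004 ± 1.07 to 16.8 ± 1.16 CPM, which is 0.49 on the log2 scale (SE 0.07; edgeR, adjusted p = 6.88e-06). Cxcr5, the receptor for the follicle chemokine, had the widest change at 0.85 (SE 0.26; edgeR, adjusted p = 0.0119), on only 7 to 30 counts a culture. Its call was lost without control replicate 1, at 0.65. Cnr2, a cannabinoid receptor of immune cells, rose by 0.50 on the log2 scale (SE 0.16; edgeR, adjusted p = 0.0193), a call lost with DESeq2 and without control replicate 2 or osteoclast-conditioned replicate 1 or 3. Cxcr4, the receptor for the bone marrow chemokine CXCL12, was not called at 0.09 (SE 0.04; edgeR, adjusted p = 0.0709). It was called without control replicate 2, at 0.12, and under the replicate block, at 0.09. The prostaglandin E2 receptors, named after their values were seen, went opposite ways, Ptger4 at 0.20 (SE 0.03; edgeR, adjusted p = 5.51e-05) and Ptger2 at -0.46 (SE 0.13; edgeR, adjusted p = 0.00997).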

How the data were processed

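The deposited table holds raw whole-number counts per Ensembl gene for 8 PER-M60 cultures, made by the authors from total RNA with the SureSelect HS2 kit, per the labels' protocols. The submitters' processing notes name STAR 2.7.5a, featureCounts 2.0.1 and the build mm10; the annotation, the use of strand and the treatment of reads in overlapping genes or with several matches are not given in the sources used here. All columns were matched to samples, with 0 left unused.

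Symbols, positions, exon lengths and overlaps came from GENCODE M21 on GRCm38, which matched 21817 of 21859 identifiers, and upstream sequences from RefSeq. In edgeR 4.0.16 (R 4.3.3), counts were filtered with filterByExpr, scaled by TMM and fitted with the robust quasi-likelihood model with medium as the term, over all 10729 genes passing. P-values were two-sided and adjusted by Benjamini-Hochberg, with a threshold of 0.05. The pipeline was tested on simulated data. Likeness used log2 CPM with a prior count of 2.

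The subunits and the gene lists were chosen with earlier results of these data known. Named genes were all beta and gamma subunits, alpha subunits past the filter, Cxcr4, up to 4 called genes with the widest change per other list, and the 5 genes most like Gng4. Gene neighbours, genes inside others and the prostaglandin receptors were added after their values were seen. Alternatives were other scalings, filters, DESeq2 1.42.0, limma-voom (limma 3.58.1), no robust estimation, a stricter threshold of 0.01, a replicate block, leaving out each culture, and, chosen after seeing the data, genes that overlap no other and leave-one-out shares of the pool differences. Python 3.11.15, pandas 2.3.3 and matplotlib 3.10.9 were used for annotation and figures.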

Additional observations from a re-analysis of the deposited data

Results flagged for a closer look

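In 6 of 82 groups of 4 cultures, over 41 named genes, 1 culture stood apart from the other 3 by more than Dixon's 95% critical value for the gap divided by the range. Chance flags about 1 in 20 groups, here 4.1. None of the 6 subunits that passed the filter on low counts had such a culture, although Gnb1 in osteoclast-conditioned replicate 4, at 578 CPM beside 606 to 611, lay just below the critical value, with a gap over range of 0.8289. Gng7, Gng10 and Gnb2, which did not pass, were not examined in this way. The causes were not tested.

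Gnb5 was low in osteoclast-conditioned replicate 1, at 7.27 CPM beside 8.48 to 8.63 in the others (gap over range 0.888). Gnal was high in control replicate 1, at 1.01 CPM beside 0.621 to 0.647 (0.931). Ric8a was high in osteoclast-conditioned replicate 1, at 75.3 CPM beside 71.0 to 71.6 (0.855). Prex1 was high in osteoclast-conditioned replicate 4, at 140.2 CPM beside 132.7 to 133.4 (0.909). Ccr2 was high in control replicate 3, at 13.6 CPM beside 11.3 to 11.6 (0.863). Bcar3, among the genes most like Gng4, was low in osteoclast-conditioned replicate 4, at 29.1 CPM beside 31.6 to 31.9 (0.918).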

How the results depend on the processing

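The log2 differences of the 6 fitted subunits kept their sign and stayed within 1 SE of the main fit under every alternative run. The alternatives were 18 for Gng4 (1.66 to 1.82) and 17 for each of the others. Those ranges were 0.22 to 0.28 for Gng2, 0.03 to 0.06 for Gng5, -0.12 to -0.07 for Gng12, 0.20 to 0.24 for Gnb1 and 0.12 to 0.15 for Gnb4. Leaving out each culture in turn gave 2635 to 3578 genes called (1220 to 1732 lower) and 16 to 26 pathway genes, of which 6 to 11 lower, the 11 without control replicate 2. With total counts only, 12 pathway genes were lower in place of 7, and 40.7% of all called genes were higher in place of 51.6%, with a median shift of -0.02. At an adjusted p under 0.01, 2147 genes were called, 948 of them lower. Over 30 named genes outside the subunits, 479 comparisons with an alternative kept direction and call, 15 lost the call, 6 gained it and 5 changed sign. The changes of sign were Gnb5 (-0.021 without control replicate 3, range without 1 culture -0.021 to 0.090), Gnal (0.033 without control replicate 1, range -0.32 to 0.033) and Gna11 (-0.0049 with total counts only, range without 1 culture -0.046 without control replicate 2 to 0.060), none of them called. The cause of these changes was not tested. Same-numbered cultures of the media deviated together with a mean correlation of 0.04 (-0.05 to 0.14) and 3 of 8 samples correlated best with their own number, so the numbers were not taken as pairs. With the replicate block 3446 genes were called, 3236 of them shared with the fit without it in the same direction, pathway calls went to 24 (16 higher, 8 lower) and the Gng4 difference was 1.77. Depth limits Gng7, Cxcr5, Gnat3 and Gnal, which rest on few counts.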
